A study of Drosophila melanogaster with 4 samples.

Results

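Broad domains of binding by LSD1, a histone demethylase, were examined in embryos of the fruit fly Drosophila melanogaster. A broad domain was any region of the combined list of LSD1-enriched regions that was at least 5000 bp wide, on any sequence of the genome. This rule took 425 of the 9018 regions, or 4.71% of the list. The domains were thus chosen by a measured value, their width in the combined list, and their widths are given as a description that supports nothing. The domains were long and mostly shallow. Most of them contained 1 or 2 separately called regions of ChIP replicate 1. In 47 of the 314 domains that shared bases with regions of both replicates (15.0%), the strongest of these regions was above 2-fold in both, against 20.2% of all regions of the list that did so. Counted over all members, it was so in 47 of the 425 domains and in 333 of the 9018 regions, a larger share in the domains. The comparison thus depends on the members counted. The whole list also includes heterochromatic and unplaced sequences, where no domain lay. The domains lay on the 6 chromosome arms and often next to each other, with 1 run of 14 on arm 3L.

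The samples were 2 ChIP samples, in which an antibody against LSD1 (Q3430 in the labels) was used on chromatin crosslinked with 1.8% formaldehyde, and 2 input samples. All 4 came from embryos aged 14 to 16 h of Oregon-R, a wild-type strain, without transgene, mutation or treatment in the labels. Whole embryos were used, so each value averages over all tissues present at that age. Each ChIP sample has an input of the same replicate number in the labels.

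LSD1, encoded in the fly by Su(var)3-3, takes methyl groups off lysine 4 of histone H3, where they mark active promoters and enhancers. It works in complexes with the scaffold protein CoREST and with histone deacetylases, which remove acetyl groups from the same nucleosomes. In the fly it is known for gene silencing and for the setting of boundaries between active chromatin and heterochromatin during embryonic development.

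The 3 lists gave a start, an end and 1 score for each region. The score is the authors' own value for the region and lies on a log2 scale, so it is given here as the fold to which it corresponds. Scores of the 3 lists are scaled differently, so folds are compared within a list only, and folds of several lists stand side by side to describe a domain. Where a limit of 2-fold is used in both replicate lists, it is not an equal cut. It is passed by 9.62% of the regions of replicate 1 and by 15.2% of those of replicate 2. The read depth per sample is unknown. Whether the replicates stem from separate collections of embryos is not stated in the labels. The combined list was made from the same samples as the replicate lists, and there is no second condition, so all results are descriptions without a test. All positions are in release 5 of the fly genome. A domain is called held by a replicate when it shares at least 1 bp with a region of that replicate's list.

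The 425 domains covered 3.33 Mb, which was 17.5% of the 19.0 Mb in the combined list. Their median width was 6755 bp, with 50% of them between 5521 and 8435 bp, and the widest spanned 33.8 kb. Just inside the limit were 2R:6187750-6192760 and 3R:5726780-5731790, both 5011 bp wide and enriched 1.42-fold and 1.38-fold, and 3R:9884742-9889758, 5017 bp wide and enriched 1.39-fold. Just outside were 2L:13289798-13294794 (4997 bp, 1.42-fold), 3R:22741270-22746246 (4977 bp, 1.38-fold) and 3L:15226492-15231464 (4973 bp, 1.35-fold). Only 14 bp separated the narrowest domain from the widest region left out, and the folds on the 2 sides were alike.

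Most domains were weakly enriched. Their folds ran from 1.28 to 7.57 with a median of 1.45, and 50% lay between 1.39 and 1.58. The 8593 narrower regions had a median of 1.35-fold and reached 14.9-fold. The regions of highest fold in the combined list were therefore narrower than the domains, although the typical domain was enriched more than the typical narrower region. This fold is 1 value for the whole width of a region. Replicate regions inside domains ranked as high as place 5 in the list of replicate 1 and place 4 in that of replicate 2. In the ranking of the combined list by score, the domains took places from 22 to 7721, with a median of 1464, and 132 of them (31.1%) were among the highest-scoring 10%. Enrichment above 2-fold was found in 39 domains (9.18%), against 372 narrower regions (4.33%) and 4.56% of the whole list. Regions from 3000 bp up to the width limit, the next class in width, reached 2-fold in 86 of 828 cases (10.4%), so this share was not particular to the domains. Above 4-fold were 6 domains (1.41%), against 103 narrower regions (1.20%). The narrower regions and the whole list include chromosome 4 and the heterochromatic and unplaced sequences, which had almost no domains. The part of these sequences in the shares was not tested. Shares of all regions on X and on the large autosomal arms are given below.

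The median fold is given by width class as a description, since width chose the domains. It was 1.43 in the 155 domains under 6000 bp and 1.45 in the 143 domains of 6000 to 8000 bp. The 62 domains from 8000 to 10000 bp had a median of 1.48-fold and the 40 from 10000 to 15000 bp one of 1.49-fold. It reached 1.59 in the 17 domains of 15 to 20 kb and 1.80 in the 8 domains of 20 kb or more.

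**Figure D1:**
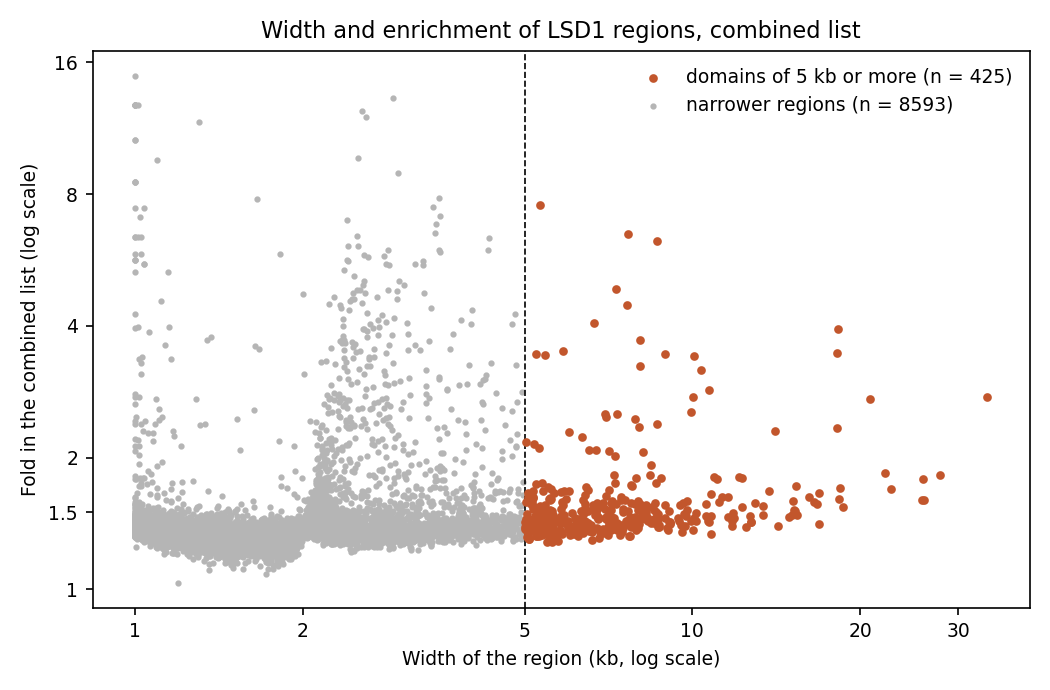
Each point is 1 region of the combined list, with its width (kb, log scale) on the x axis and its fold (log scale) on the y axis; the 425 domains of 5 kb or more are coloured and the 8593 narrower regions are grey. Of the domains 50% lie between 1.39-fold and 1.58-fold, the highest reaches 7.57-fold, and the highest narrower region reaches 14.9-fold.

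The domains were held by the replicates to very different degrees. Replicate 1 held 423 of the 425 domains (99.5%), against 37.1% of the narrower regions and 40.1% of the whole list. Replicate 2 held 314 (73.9%), against 23.7% of the narrower regions and 26.1% of the whole list. All 314 were also held by replicate 1, so 73.9% of the domains were held by both replicates, against 15.5% of the narrower regions and 18.3% of the whole list. Replicate 1 alone held 109 domains, replicate 2 alone held 0, and 2 domains were held by neither. In the class from 3000 bp up to the limit the shares were 90.1% in replicate 1 and 58.0% in replicate 2, with 53.7% in both. A wider region has more bases in which a replicate region can fall, and the part of width in these shares was not tested.

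Each domain was made of few replicate regions. Replicate 1 had 1 region inside in 219 domains and 2 in 158, while 38 domains held 3 regions, 5 held 4, 2 held 5 and 1 held 6. Thus 204 domains (48.0%) were split into 2 or more regions in replicate 1, and 25.2% when regions closer than 500 bp were merged. In replicate 2, 111 domains held 0 regions, 197 held 1, 85 held 2, 24 held 3, 3 held 4 and 5 held 5. A split into 2 or more was therefore found in 117 domains (27.5%) in replicate 2, and in 48.4% of the domains with a width limit of 7500 bp. Both replicates had exactly 1 region inside in 114 domains. Of the 314 domains held by both, 157 had equal numbers, 97 had more regions in replicate 1 and 60 had more in replicate 2.

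Few of the replicate regions were themselves broad. Replicate 1 listed 183 regions of 5000 bp or more among 3951, of which 176 touched a domain, and these lay in 168 domains. Replicate 2 listed 27 among 2607, and all 27 touched a domain. The widest region inside a domain measured 22.1 kb in replicate 1 and 10.6 kb in replicate 2. Most domains were thus longer than any single replicate region in them, above all in replicate 2. The 7 broad regions of replicate 1 outside the domains were 5003 to 6743 bp wide.

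Replicate regions inside the domains were wider but little different in fold from those elsewhere. The 681 regions of replicate 1 that touched a domain were at the median 3161 bp wide and enriched 1.60-fold, against 1883 bp and 1.53-fold for its other regions. The 476 of replicate 2 had a median of 2053 bp and 1.57-fold, against 1854 bp and 1.54-fold for its other regions. Above 2-fold were 58 of those in domains in replicate 1 (8.52%), against 322 of its other regions (9.85%) and 9.62% of its whole list. In replicate 2 they were 62 (13.0%), against 335 (15.7%) and 15.2% of its whole list. The share of high regions was thus no higher inside the domains than in the lists as a whole.

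The widest domains showed how blocks of different strength were strung together. X:1148400-1182214, 33.8 kb wide and enriched 2.76-fold, held 6 regions of replicate 1 and 5 of replicate 2, or 11 in all, the most of any domain. One block in its middle was far above the rest: it ran from 12.8 to 24.4 kb at 4.37-fold in replicate 1 and from 14.7 to 24.0 kb at 6.78-fold in replicate 2. The other blocks lay between 1.52-fold and 1.83-fold in replicate 1 and between 1.54-fold and 1.75-fold in replicate 2. A domain of 20.9 kb at 3L:121124-141988 (2.73-fold) was built in the same way. Its strongest block stood at 3.49-fold over 11.8 kb in replicate 1 and at 6.22-fold over 5.47 kb in replicate 2, and its other blocks did not pass 1.52-fold and 1.61-fold.

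Other wide domains had blocks of similar fold. 3R:12056386-12084162, 27.8 kb wide and enriched 1.82-fold, was covered for 96.1% by 2 regions of replicate 1, at 2.00-fold and 1.90-fold. Replicate 2 covered 93.4% of it with 5 regions between 1.55-fold and 1.98-fold, and 91.2% of the domain was covered in both. In 3R:5242914-5265124, 22.2 kb wide and enriched 1.84-fold, a single region of replicate 1 covered 99.3% at 2.07-fold. Replicate 2 broke this domain into 3 regions between 1.82-fold and 2.08-fold, which covered 47.1%. 2R:20201342-20224096, 22.8 kb wide and enriched 1.70-fold, was likewise 1 region of 2.01-fold in replicate 1 (96.5% covered) and 5 regions between 1.50-fold and 1.62-fold in replicate 2 (45.9% covered). The same stretch could thus be a single block in one replicate and up to 5 blocks in the other.

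Between these forms were domains with moderate blocks. 2R:5428894-5454824, 25.9 kb wide and enriched 1.78-fold, held 3 regions of replicate 1 (1.59-fold to 2.17-fold) and 5 of replicate 2 (1.33-fold to 1.77-fold). In 3L:624052-650100, 26.0 kb wide and enriched 1.60-fold, 1 region of 22.0 kb at 1.86-fold made up most of the replicate 1 cover, while replicate 2 covered 33.1% in 3 regions that did not pass 1.74-fold. 3R:5693444-5719296, 25.9 kb wide and enriched 1.60-fold, had its strongest part at the same place in both replicates, 61.2% and 60.9% of the way along, at 2.23-fold and 1.94-fold. These 3 domains had covers of 88.2% to 92.7% in replicate 1 and of 33.1% to 69.2% in replicate 2. X:12555226-12573596, 18.4 kb wide and enriched 1.61-fold, was the narrowest of the 5 domains with most regions, holding 5 of replicate 1 and 3 of replicate 2. Its strongest region lay near 75% of its width in both, at 2.22-fold and 1.77-fold.

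**Figure D2:**
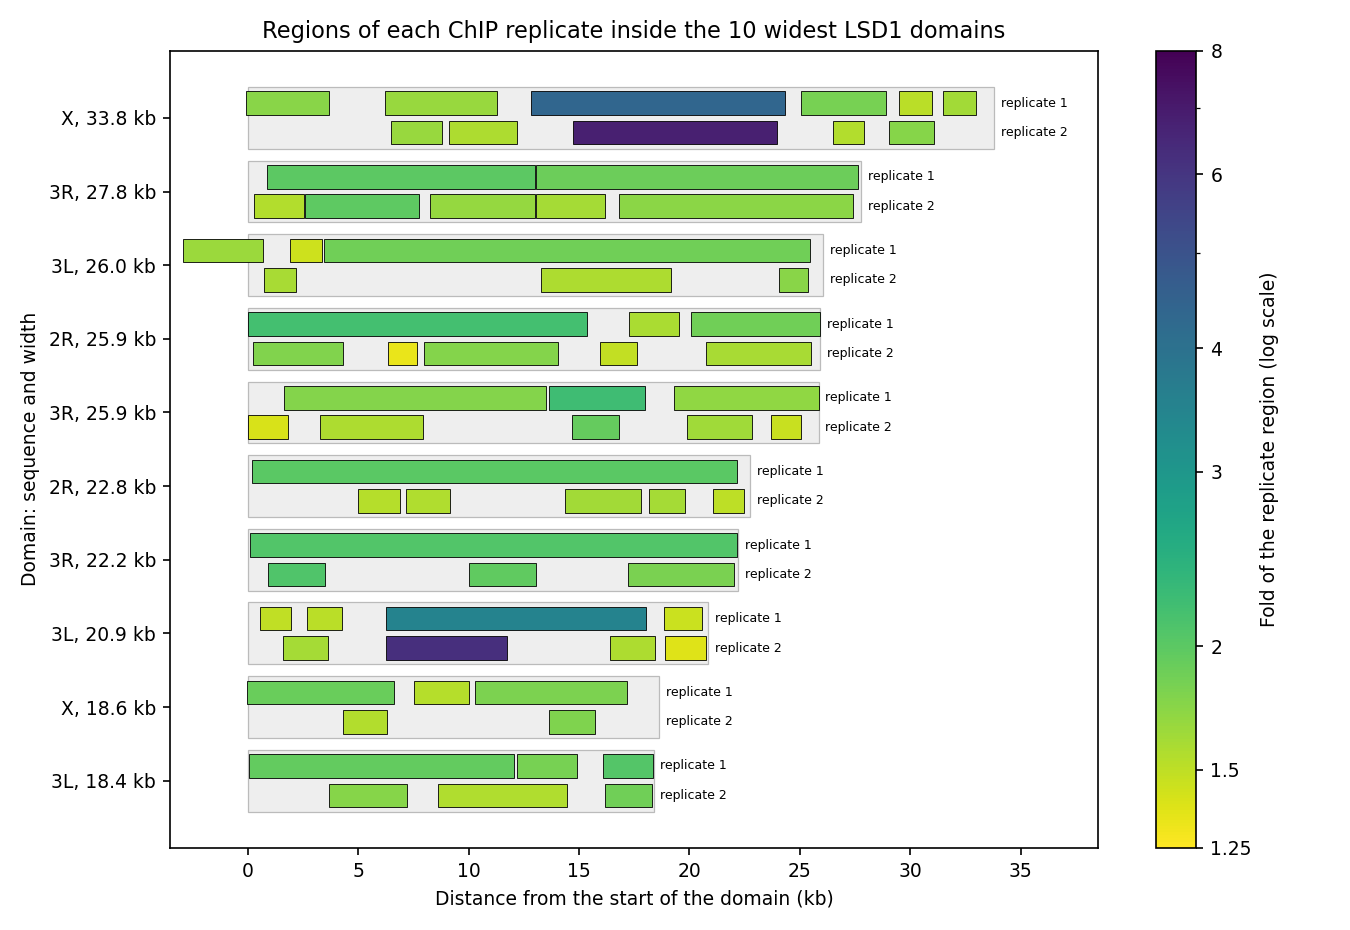
The 10 widest domains are drawn as grey bars from their start (x axis, kb), with the regions of replicate 1 above and those of replicate 2 below, coloured by the fold of the region (log scale). The domain of 33.8 kb on X and that of 20.9 kb on 3L have 1 dark block in each replicate (4.37-fold and 6.78-fold, 3.49-fold and 6.22-fold), while the domain of 27.8 kb on 3R has blocks between 1.55-fold and 2.00-fold in both replicates.

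Replicate 1 filled most of a domain and replicate 2 less than 50% of it in most cases. The median share of a domain covered by replicate 1 was 81.4%, with 50% of the domains between 65.7% and 91.9%. For replicate 2 the median was 30.8% over all 425 domains and 40.7% over the 314 it held, and it was 0% when only the regions above the median score of its list were used. At least 50% of the width was covered in 378 domains (88.9%) by replicate 1 and in 112 (26.4%) by replicate 2. The 2 lists also differed in size, with 9.29 Mb in replicate 1 and 5.24 Mb in replicate 2, and the part of this difference in the extents was not tested. Taken over all bases, 78.9% of the domains were covered by replicate 1, 35.1% by replicate 2, 30.5% by both and 83.4% by at least 1 of them. Of the 314 domains held by both, 277 were covered further by replicate 1 and 37 by replicate 2. How far replicate 1 filled a domain said little about replicate 2, with a Spearman's rho of 0.0973 over those 314 domains.

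Domains of higher fold were covered more fully. Spearman's rho of the fold in the combined list and the share covered was 0.385 in replicate 1 and 0.648 in replicate 2 over the 425 domains, which share their reads between lists. The domain X:11710750-11718378 (7629 bp, 4.45-fold) was covered for 99.7% in replicate 1 and for 99.0% in replicate 2. At the other end was 3R:843620-848676 (5057 bp, 1.32-fold), with 8.01% covered in replicate 1 and 27.5% in replicate 2, the lowest replicate 1 cover of any domain it held.

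**Figure D3:**
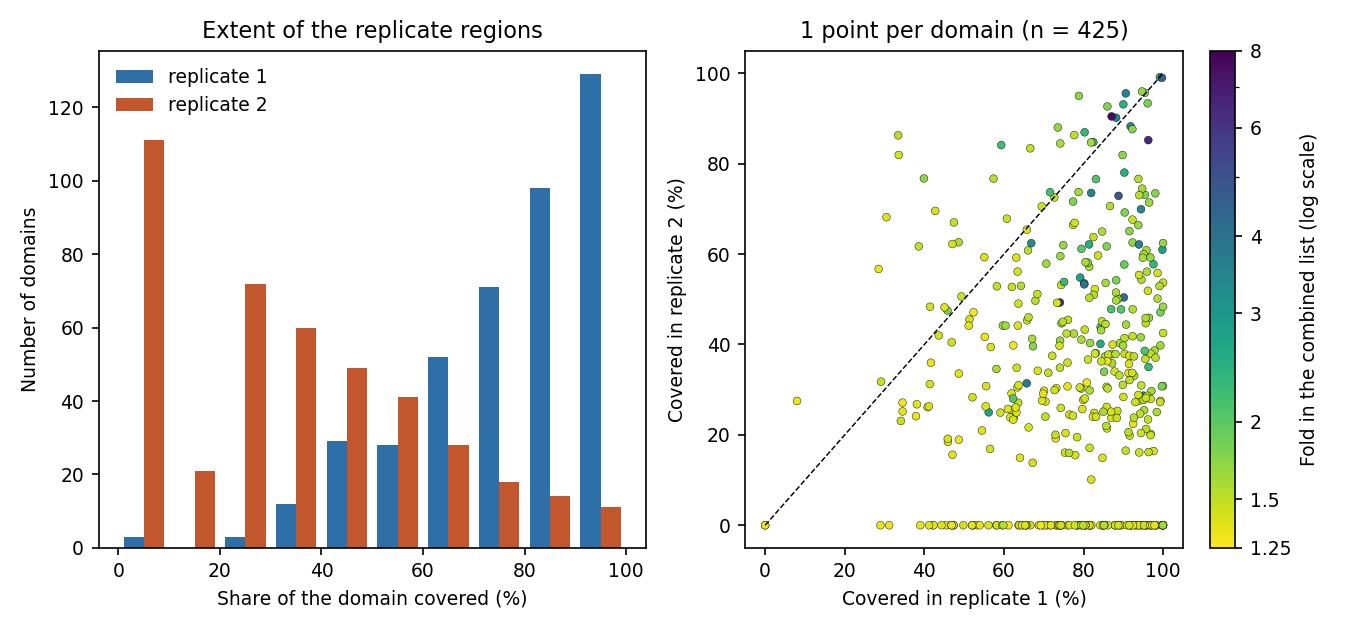
The left panel counts domains by the share of their width covered by each replicate (%, bins of equal width), and the right panel sets the share in replicate 2 (y axis, %) against that in replicate 1 (x axis, %) for each of the 425 domains, coloured by fold in the combined list, with the line of equal shares dashed. Replicate 1 has a median of 81.4% and replicate 2 of 30.8%, the row of points at 0 is made of the 111 domains that replicate 2 does not hold, and 277 of the 314 others lie under the line.

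The strongest replicate region of a domain, that is the one of highest score, had a median of 1.66-fold in replicate 1 (423 domains, 1.42-fold to 10.1-fold) and of 1.61-fold in replicate 2 (314 domains, 1.23-fold to 12.1-fold). It passed 2-fold in 55 domains in replicate 1 (13.0%) and in 57 in replicate 2 (18.2%). It took up a median of 56.8% of the domain in replicate 1 and of 29.8% in replicate 2. Of the 100 highest regions, 15 in replicate 1 and 23 in replicate 2 touched a domain, against 17.2% and 18.3% of all regions of these lists, so summits were not particular to the domains.

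In most split domains no block stood out. Where a domain held 2 or more regions, the strongest exceeded the next by a median of 1.07 times in fold in replicate 1 (204 domains) and 1.10 times in replicate 2 (117 domains). It was at least 2 times as high as the next in 11 domains in replicate 1 and in 9 in replicate 2. The strongest region was also the widest in 145 of 204 domains (71.1%) in replicate 1 and in 78 of 117 (66.7%) in replicate 2. A domain with 1 dominant block, such as the widest one on X, was thus the exception, with ratios of up to 6.50 in replicate 1 and 6.28 in replicate 2.

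The strongest part had no fixed place along the domain, measured from its lower coordinate and without regard to the direction of genes. This was counted where the strongest region took up under 50% of the width, since a longer one must lie near the middle. With each domain cut into 5 equal parts, these held, from start to end, the middle of the strongest region in 24, 51, 31, 42 and 30 domains in replicate 1, with 4 more beyond the ends (182 domains). In replicate 2 the 5 parts held it in 44, 56, 54, 66 and 45 of 265 domains. The wider of these strongest regions cannot have their middle in an outer part if they lie inside the domain. The counts of the 5 parts are therefore not strictly comparable. Its median distance from the centre was 25.2% of the width in replicate 1 and 25.9% in replicate 2. In 3L:17952362-17970742 (18.4 kb, 1.70-fold) it lay near the end in both replicates, 93.7% of the way along, at 2.06-fold and 1.88-fold.

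Both replicates often placed their strongest part on the same stretch. In 263 of the 314 domains held by both (83.8%), the 2 strongest regions shared at least 1 bp, and in 51 they lay apart. The share was 97.5% for narrower regions held by both, which have less room for regions to lie apart, and 93.7% in the class from 3000 bp up to the limit. Their middles were a median of 1083 bp apart, under 500 bp in 102 domains and at least 1000 bp in 163. Long regions overlap more readily, and in the 134 domains where the strongest region of replicate 1 took up under 50% of the width, 92 (68.7%) overlapped. In the 69 domains with 2 or more regions in each replicate, 49 (71.0%) did. The largest distance was 11.4 kb, in X:10618364-10637008 (18.6 kb, 1.54-fold). There the strongest region of replicate 1 lay 17.7% of the way along at 1.91-fold and that of replicate 2 lay 78.8% of the way along at 1.79-fold.

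**Figure D4:**
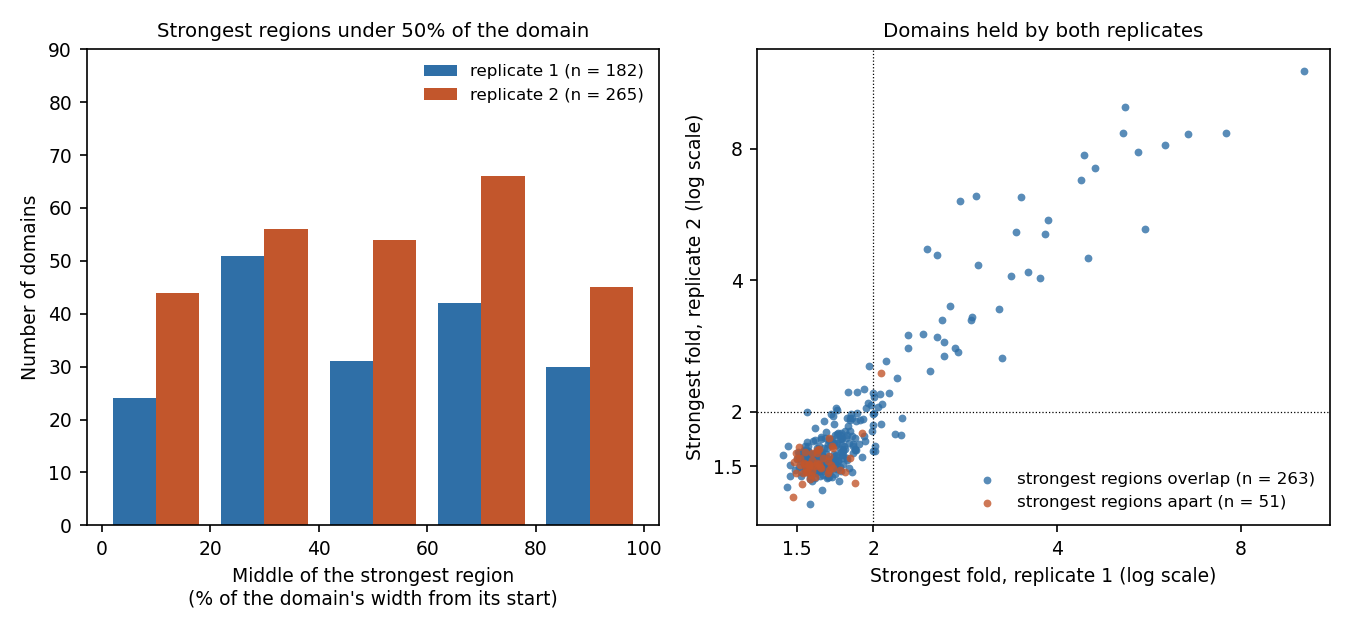
The left panel counts domains by the position of the middle of the strongest region (x axis, % of the width from the start, bins of 20%), for domains where this region takes up under 50% of the width; the right panel plots the fold of the strongest region in replicate 2 against that in replicate 1 (both log scale) for the 314 domains held by both, coloured by whether the 2 regions overlap, with dotted lines at 2-fold. Positions are spread over all 5 bins, and of the 47 domains above 2-fold in both replicates all but 1 have overlapping strongest regions.

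A small group of domains had a high core. The strongest region was above 2-fold in both replicates in 47 of the 314 domains held by both (15.0%), in replicate 1 only in 8, in replicate 2 only in 10 and in neither in 249. The same held for 286 of the 1335 narrower regions held by both replicates (21.4%), for 91 of the 445 from 3000 bp up to the limit (20.4%) and for 20.2% of the whole list held by both. Among regions held by both, such cores were thus not more frequent in domains. The narrower regions and the whole list include chromosome 4 and the heterochromatic and unplaced sequences. The part of these sequences in the shares was not tested. Counted over all members, held by both or not, they were in 47 of 425 domains, against 286 of 8593 narrower regions, a larger share in the domains. In the class from 3000 bp up to the limit they were in 91 of 828, so the comparison depends on the members counted. The folds of the strongest regions had a Spearman's rho of 0.694 between the replicates over the 314 domains. The strongest regions overlapped in 46 of the 47 domains (97.9%), with a median distance of 443 bp, against 199 of the 249 (79.9%) and 1202 bp. The exception, named after its values were seen, was X:3633772-3644868 (11.1 kb, 1.78-fold), whose strongest regions at 2.06-fold and 2.45-fold lay 8177 bp apart. In the 47 domains the strongest region measured a median of 5076 bp in replicate 1 and 3400 bp in replicate 2, against 4291 and 2036 bp in the 249. Replicate 2 covered a median of 61.0% of the 47 and 37.5% of the 249, while replicate 1 covered 84.3% and 80.5%. In the combined list the medians of the 47 were 7885 bp and 2.48-fold, against 6793 bp and 1.46-fold. Both groups were chosen by their replicate folds, and the combined list comes from the same samples. The higher fold of the 47 there follows from this choice and is no separate result.

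The 10 highest domains were sorted into 3 kinds after their values were seen. In the first the core filled the domain: 3L:16153710-16159032, the highest of all at 7.57-fold and 5323 bp wide, was 1 region in each replicate, at 7.55-fold and 8.68-fold, covering 87.1% and 90.5%. 2L:19154250-19161906 (7657 bp, 6.47-fold) was of the same kind, at 6.00-fold over 96.3% and 8.18-fold over 85.2%, as were X:11710750-11718378, at 4.49-fold and 4.50-fold, and 2R:19946744-19952606 (5863 bp, 3.50-fold), at 3.36-fold over 88.2% and 4.10-fold over 90.2%. These 4 domains had 1 region in each replicate and little outside it.

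In the second kind a narrow core stood beside low flanks. The domain 2L:9199752-9208396 (8645 bp, 6.25-fold) held the strongest region of any domain in both lists, 4418 bp at 10.1-fold in replicate 1 and 4261 bp at 12.1-fold in replicate 2. Beside it lay 1 region of replicate 1 of only 1.56-fold. In 2L:19133936-19141982 (8047 bp, 3.72-fold) the core of 6.54-fold and 8.63-fold sat at the start of the domain, 2685 bp without a region of either replicate followed, and a region of 1.47-fold in replicate 1 closed it. 2L:19570294-19577594 (7301 bp, 4.85-fold) was 1 region of 5.16-fold in replicate 1, which replicate 2 resolved into a part of 1.59-fold and a part of 9.99-fold. 2R:2105592-2112250 (6659 bp, 4.06-fold) had a core of 4.42-fold and 7.75-fold beside a region of 1.54-fold in replicate 1.

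In the third kind several high blocks followed each other. X:6871768-6889992, 18.2 kb wide and enriched 3.94-fold, held 2 regions of replicate 1 at 5.43-fold and 4.18-fold. Replicate 2 held blocks of 7.86-fold and 7.29-fold there, next to 1 of 1.57-fold. X:2539220-2557414, also 18.2 kb wide and enriched 3.46-fold, was 1 region of 14.9 kb at 3.87-fold in replicate 1. Replicate 2 divided it into a block of 8.47 kb at 3.46-fold and one of 4.92 kb at 5.50-fold. These 2 domains were the widest among the 10 of highest score.

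The domains also contained stretches that neither replicate list covered. Such empty stretches came to 553 kb in all, of which 390 kb (70.5%) lay at the edges of domains and 163 kb between covered parts. An inner empty stretch was found in 212 domains (49.9%), it was at least 1000 bp long in 54, and the longest measured 3088 bp. Per domain the longest empty stretch, edges included, had a median of 749 bp. Apart from the 2 domains held by neither replicate, the longest was in 2L:1416276-1426988 (10.7 kb, 2.86-fold). This domain carried a core of 5.13-fold in replicate 1 and 8.67-fold in replicate 2, 42.0% and 40.6% of the way along, and its last 4504 bp were empty in both lists. Next came 2R:7077156-7084896 (7741 bp, 1.42-fold) with 3691 bp and 3L:15532888-15542018 (9131 bp, 1.42-fold) with 3615 bp, both held by replicate 1 alone.

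The domains held by replicate 1 alone were shorter and lower. The 109 were at the median 6125 bp wide and enriched 1.39-fold, against 7141 bp and 1.50-fold in the 314 held by both, and the highest of them reached 1.62-fold. Replicate 1 covered them almost as fully, with a median of 79.9%, against 81.9%. The widest was 3L:547462-559948 (12.5 kb, 1.39-fold), with 4 regions of replicate 1 between 1.51-fold and 1.55-fold over 86.2% of its width. On 2R, the domains 2R:11798410-11809120 (10.7 kb wide, enriched 1.42-fold) and 2R:2847388-2857970 (10.6 kb wide, enriched 1.47-fold) were covered by replicate 1 for 94.8% and 95.6%. Another one there, 2R:18788340-18798394, was 10.1 kb wide, enriched 1.46-fold and covered for 92.0%. A domain of 10.8 kb at 2L:10750416-10761212 (1.34-fold) was sparser, with 3 short regions of replicate 1 over 47.4%. The 2 domains held by neither replicate were 3R:5209016-5214278 (5263 bp) and X:18515778-18521030 (5253 bp), each enriched 1.32-fold.

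The domains were spread unevenly over the arms. Arm 2R had 112 domains, or 5.30 per Mb (95% exact Poisson interval 4.36 to 6.37), and arm 3R had 114, or 4.09 per Mb (3.37 to 4.91). Arm 3L had 76, or 3.10 per Mb (2.44 to 3.88), arm 2L had 64, or 2.78 per Mb (2.14 to 3.55), and X had 58, or 2.59 per Mb (1.96 to 3.34). The intervals cover counting error only, and domains that lie in groups are not independent counts. The interval of 2R did not overlap those of 3L, 2L and X, while those of 3L, 2L and X overlapped each other. Domains made up 6.26% of the regions of 2R and 5.67% of those of 3R, against 4.19% on 3L, 3.96% on 2L and 3.73% on X. They held 21.6% of the covered bases on 2R and 21.2% on 3R, against 14.2% to 16.3% on the other 3 large arms.

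Domains on X were fewer but higher. Their median was 1.53-fold, against 1.44-fold for the 366 domains of the large autosomal arms, and 12 of 58 (20.7%) passed 2-fold, against 26 of 366 (7.10%). Of all regions of the combined list, 4.88% on X and 3.44% on these autosomal arms passed 2-fold, so the difference was not limited to domains. The strongest regions of the X domains had medians of 1.83-fold in replicate 1 and 1.78-fold in replicate 2, while the other large arms had medians between 1.63-fold and 1.66-fold and between 1.58-fold and 1.62-fold. Of the 47 domains with a high core, 13 were on X, 11 on 2R, 10 on 2L, 8 on 3R, 4 on 3L and 1 on chromosome 4. Arm 3R had the most domains, 114 of 425, and few of them were above 2-fold (5, or 4.39%). On 3L there were likewise few, 3 of 76 (3.95%). Of the 249 domains held by both replicates without a region above 2-fold in either, 75 were on 3R. This is to be read beside the 87 domains of 3R among the 314 held by both.

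Chromosome 4 had 1 domain among 61 regions, 4:977826-982858, 5033 bp wide and enriched 2.18-fold, with strongest regions of 2.28-fold and 2.80-fold. The 7 heterochromatic and unplaced sequences had 0 domains among 172 regions, which allows a share of up to 1.74%. The widest region there measured 4837 bp, on 2RHet, at 2.69-fold, just under the limit. Along the 5 large arms, each cut into 3 equal parts, domains made up 5.14% of the regions in the part next to the centromere (141), 4.37% in the middle (130) and 4.99% in the part next to the telomere (153). The pattern differed between arms. From the centromere end over the middle to the telomere end, the shares were 7.01%, 5.37% and 4.52% on 3R. They were 6.25%, 5.49% and 7.06% on 2R, and 3.13%, 3.44% and 4.51% on X. On 3L they were 4.81%, 3.83% and 4.05%, and on 2L 3.42%, 3.32% and 4.94%.

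The domains lay in groups. Between neighbouring domains on a sequence (419 pairs) the gap had a median of 98.1 kb, with 50% between 15.7 and 356 kb, and ranged from 43 bp to 4234 kb. Another domain lay within 50 kb for 259 domains (60.9%), within 10 kb for 146 (34.4%) and within 1 kb for 47 (11.1%). With a width limit of 7500 bp, 33.1% had a domain of that width within 50 kb. A single region of replicate 1 bridged 4 of the 25 pairs within 1 kb, across gaps of up to 193 bp, and a region of replicate 2 bridged 0. The list thus divided some stretches that replicate 1 alone gave as 1 region.

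The surroundings of the domains were also rich in narrower regions. The nearest other region of the combined list was a median of 561 bp away from a domain on the arms, against 1731 bp for a narrower region and 799 bp for those from 3000 bp up to the width limit. It lay within 500 bp for 197 domains (46.4%), against 23.6% of the narrower regions and 37.5% of that class. In the gaps of at most 50 kb between domains, 34.1% of the bases were covered by narrower regions, against 13.1% in longer gaps.

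When domains were joined across gaps of at most 50 kb, 97 runs of 2 or more contained 259 domains, and 166 domains stood alone. Of these runs, 61 had 2 domains, 25 had 3, 7 had 4, 2 had 5, 1 had 10 and 1 had 14. The run of 14 at 3L:524342-823346 spanned 299 kb, of which 42.1% was in domains and 62.5% in regions of the combined list of any width. Its domains were all low in the combined list, from 1.37-fold to 1.80-fold, and 11 of them were held by both replicates. Replicate 1 had 39 regions there over 44.2% of the span and replicate 2 had 22 over 16.1%. Single parts were higher. In 3L:818110-823346 the strongest regions were at 2.04-fold in replicate 1 and 2.05-fold in replicate 2. In 3L:744632-752572 they were at 2.00-fold and 2.21-fold. A narrower region of the run stood at 2.33-fold in the combined list. This run contained the third widest domain of the list and the widest that replicate 2 did not hold.

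The run of 10 at 3R:816562-933484 was shorter and denser, with 67.0% of its 117 kb in domains and 78.6% in combined-list regions. Its folds lay between 1.32 and 1.56, and only 5 of its 10 domains were held by both replicates. Replicate 1 had 20 regions over 64.1% of the span, against 6 of replicate 2 over 12.0%. The domain 3R:878034-885366 was covered for 100% by replicate 1 and not at all by replicate 2. Low enrichment over long stretches, found mostly by replicate 1, was thus shared by the 2 runs with most domains. It was not particular to them. Most domains were weakly enriched, and over all 425 the median share covered was 81.4% in replicate 1 and 30.8% in replicate 2.

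Next in number of domains were 2 runs of 5 and 7 runs of 4. Those at 2L:125862-251320 and 2R:2847388-2938962 had 5 domains each, over 125 and 91.6 kb, with 31.6% and 42.9% of the span in domains. Only the second contained a high domain, 2R:2911674-2919708 (8035 bp, 2.35-fold), with strongest regions of 2.96-fold and 4.34-fold, and its other 4 domains did not pass 1.47-fold. Of the 7 runs of 4 domains the longest, 2R:11976286-12109198, spanned 133 kb with folds between 1.37 and 1.56. It had the lowest share of its span in domains among them, 26.9%, and the highest was 78.6%. In windows of 1 Mb the domains numbered from 0, in 14 of 117 windows, to 17, with a median of 3. The window of 17 was the first of 3L, where domains took up 16.2% of the bases, and 3R:5000001-6000000 and 3R:1-1000000 followed with 14 domains each, over 13.8% and 11.3%. The 11 windows with 8 or more domains contained 119 of the 425. These windows were picked by their number of domains. Each had 80 to 118 regions of any width, against 20 to 118 over all windows.

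**Figure D5:**
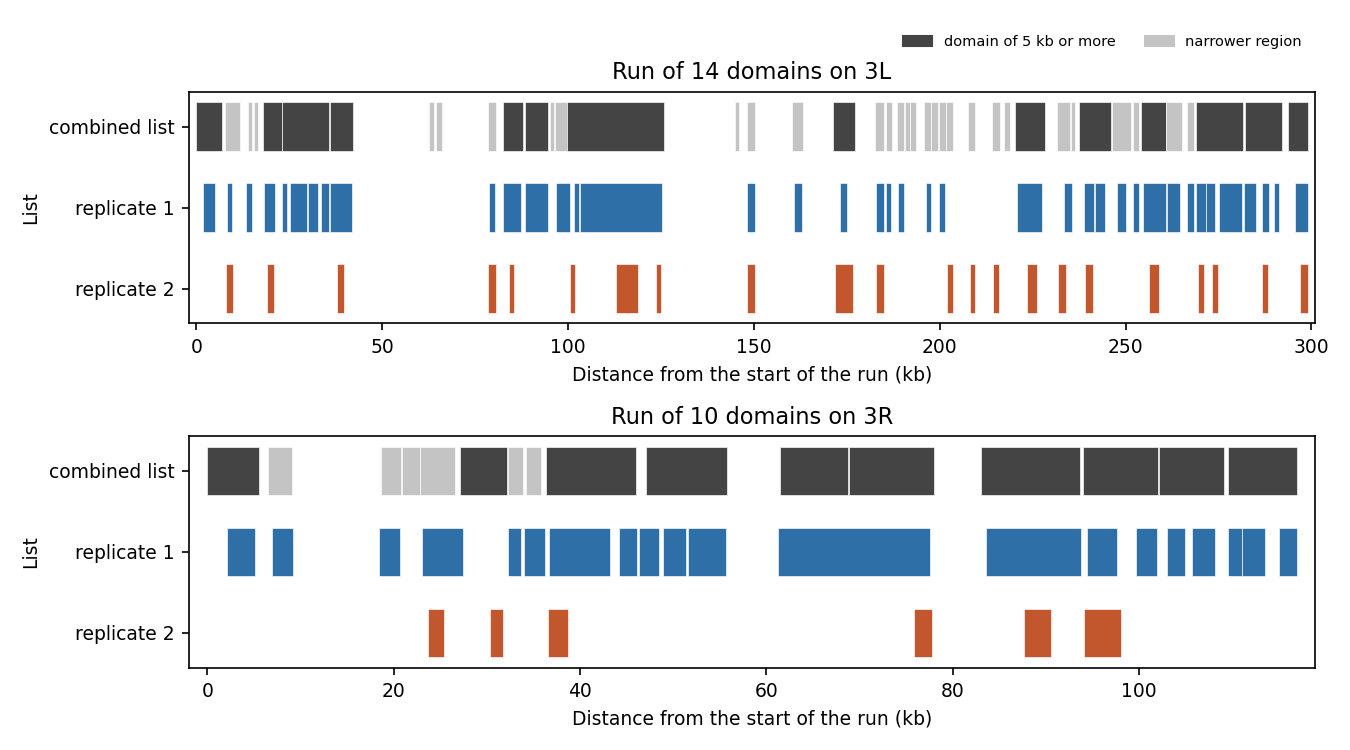
The 2 runs with most domains are drawn from their start (x axis, kb), with the regions of the combined list on top (domains dark, narrower regions light), those of replicate 1 in the middle and those of replicate 2 at the bottom. In the run of 14 domains on 3L replicate 1 covers 44.2% and replicate 2 covers 16.1% of the span, and in the run of 10 on 3R they cover 64.1% and 12.0%.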

How the data were processed

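LSD1 ChIP-seq of 2 ChIP samples, with 2 inputs, was analysed through 3 deposited lists of regions: that of each ChIP replicate and a combined one. Bowtie 0.12.7 is named in the submitters' processing notes, and release 5 of FlyBase is the build per the file headers. The sources used here do not say how regions were called or replicates combined. The authors' deposited score has no stated unit and was read as a log2 value: with base 2, 100% of the scores of the combined list, against 0.743% with base 10, gave ratios of whole numbers to each other (tolerance 1e-12, denominators up to 20000). Folds are 2 to the power of the score. With 1 score per region, depth is unknown.

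Computed from the lists were widths, overlaps of at least 1 bp, covered shares, gaps, and runs across at most 50 kb. Poisson intervals are exact at 95%. No test was run, since there is no second condition and the combined list was made from the same samples as the replicate lists. Domains were named by a rule: the 10 widest, the 10 of highest score, the 5 with most replicate regions, the 5 with the longest stretch that neither replicate covers, the 5 runs with most domains, the 3 on each side of the width limit and the 5 widest not held by a replicate. Other single domains were named after their values were seen. Members and lists were chosen with earlier results of these data known. The procedures for region counts, covered shares, longest empty stretches, highest folds and gaps between domains were tested on simulated lists. Every simulated replicate region lay inside 1 domain, and the other measures were not tested in this way. Alternatives were other widths, merging, stricter overlaps, higher scores, arms only and either replicate alone. No gene or sequence is given, since no genome or annotation of release 5 was used. Software was Python 3.11.15 with scipy 1.17.1, numpy 2.4.6, matplotlib 3.10.9 and pandas 2.3.3.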

Additional observations from a re-analysis of the deposited data

How the results depend on the processing

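With limits of 4000 and 7500 bp in place of 5000 bp, the number of domains was 712 and 157 and their share of the listed bases 24.3% and 9.12%. The share split into 2 or more regions was then 38.3% and 60.5% in replicate 1 and 18.8% and 48.4% in replicate 2. The median share covered by replicate 1 was 79.2% and 85.9%, and the share with a neighbour within 50 kb was 70.2% and 33.1%. With 7500 bp the median score was 0.59 and the median share covered by replicate 2 was 37.4%. Merging regions of the combined list closer than 500 bp gave 678 domains, and the arms alone held 17.8% of their listed bases in domains. Asking for 1 replicate left between 314 and 423 domains. With only the replicate regions above the median score of their list, the median share covered was 67.9% in replicate 1 and 0% in replicate 2. Merging replicate regions closer than 500 bp left 25.2% of the domains split in replicate 1 and 20.5% in replicate 2. The strongest regions overlapped in 77.4% of the domains when 50% of the shorter had to be shared, in 71.0% among domains with 2 or more regions in both replicates, and in 68.7% where that of replicate 1 was under 50% of the domain, an alternative chosen after seeing the data. A neighbour lay within 20 kb for 46.8% of the domains and within 100 kb for 73.2%. The other 19 of 44 alternatives moved a result by less than its 95% interval or, for the number of domains, by less than 1.5 times. These intervals count each domain as independent, or each base for the share of bases, although domains lie in groups. They therefore serve as a yardstick only and do not measure the spread between samples. Unknown depth, the unnamed caller and the larger list of replicate 1 limit all extents and counts. No paired analysis was possible because the results come from no test and the inputs have no list of their own analysed here.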
